A study of Mus musculus with 52 samples.

Results

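APP/E4 mice were compared with APP/E3 mice among females kept on normal diet (ND), using RNA from the frontal cortex. The comparison rests on 14 of the 52 libraries of the study, 7 from APP/E3 and 7 from APP/E4, chosen by the genotype, diet and gender given for each sample. All mice of both groups carried the APP/PS1ΔE9 transgenes, which cause amyloid plaques to form, and had both copies of mouse Apoe exchanged by targeted replacement, for human APOE3 in APP/E3 and human APOE4 in APP/E4. The study crossed these genotypes with sex and with a Western high-fat diet (HFD). ND was a standard chow to which mice were allocated at random, on average 3.5 months old, for 3 months of feeding, while behaviour was tested at 14.7 months on average. The labels do not say how these fit together, at what age each mouse was dissected, on which strain background or from which litter. No mice without APP transgenes and none with mouse Apoe were analysed here, so the comparison is between 2 human alleles in brains with amyloid. The transgenes of this line are driven by the mouse prion protein promoter, so their expression does not follow that of the endogenous genes. Genotype and breeding line cannot be told apart, because each allele was bred as its own line.

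Apolipoprotein E is the main lipid carrier of the brain, made chiefly by astrocytes and by microglia that respond to plaques. The human APOE4 allele raises the risk of Alzheimer's disease relative to APOE3 and goes with more amyloid. Microglia near plaques switch on a program that depends on the receptor Trem2 and its adapter Tyrobp and includes Clec7a, Itgax, Cst7 and chemokine genes, while reactive astrocytes make the protease inhibitor Serpina3n.

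The promoters of 3 genes that were higher in APP/E4 are shown because the results below turn on these genes: Serpina3n, the called gene of reactive astrocytes, and Itgax and Clec7a, both of plaque-associated microglia. Each is 300 bases long, from 250 bases before to 50 after the RefSeq transcription start (build GRCm38.p6), written 5′ to 3′ on the gene's strand. Capitals mark matches, on either strand, to TTCNNNGAA (the STAT motif), GAGGAA (the core bound by the microglial factor PU.1) or TGACTCA (the AP-1 motif, bound by Jun family dimers). For Clec7a the first of 2 listed starts was used.
Serpina3n, chr12:104406458-104406757, plus strand: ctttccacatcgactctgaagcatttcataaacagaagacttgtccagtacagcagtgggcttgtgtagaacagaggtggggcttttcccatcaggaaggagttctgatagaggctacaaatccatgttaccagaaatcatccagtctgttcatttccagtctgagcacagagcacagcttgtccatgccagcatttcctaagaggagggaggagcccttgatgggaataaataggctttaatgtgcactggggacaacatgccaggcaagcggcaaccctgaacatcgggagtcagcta
Itgax, chr7:128129300-128129599, plus strand: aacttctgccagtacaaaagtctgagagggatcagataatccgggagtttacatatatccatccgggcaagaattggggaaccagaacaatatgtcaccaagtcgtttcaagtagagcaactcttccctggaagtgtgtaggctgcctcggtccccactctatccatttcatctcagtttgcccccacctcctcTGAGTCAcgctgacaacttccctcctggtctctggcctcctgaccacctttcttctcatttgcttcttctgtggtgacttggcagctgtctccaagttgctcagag
Clec7a, chr6:129472730-129473029, minus strand: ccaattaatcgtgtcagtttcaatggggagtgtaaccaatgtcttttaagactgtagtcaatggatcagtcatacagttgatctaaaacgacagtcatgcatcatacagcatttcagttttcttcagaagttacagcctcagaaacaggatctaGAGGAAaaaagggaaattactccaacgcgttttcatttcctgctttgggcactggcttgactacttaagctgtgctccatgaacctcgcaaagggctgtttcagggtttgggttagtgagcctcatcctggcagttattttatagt
None of the 3 motifs was found in the window of Serpina3n. TGACTCA occurred once in that of Itgax, on the minus strand, and GAGGAA once in that of Clec7a. Of 32851 listed promoters, 8.3% held TTCNNNGAA, 28.3% GAGGAA and 5.2% TGACTCA. Among the 107 genes with a listed promoter that were called different between the genotypes below, these shares were 6.54%, 30.8% and 7.48%, so the called genes held them about as often as all promoters.

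Levels are given as TMM-scaled CPM, which are counts per 1 M of a library total corrected for composition, as the lowest, median and highest of the 7 libraries of a group. Differences are log2 values of APP/E4 minus APP/E3 with a standard error (SE). The SE was derived as the absolute log2 difference over the square root of F in edgeR's quasi-likelihood test. A gene was called where the Benjamini-Hochberg adjusted p over 15195 tested genes was under 0.05. The libraries held 7.09 to 12.2 M counts in APP/E3 and 8.12 to 11.7 M in APP/E4. At these depths 3 counts correspond to 0.246 to 0.423 CPM, below which a level is not distinguished from 0. P-values weigh a difference against the spread between mice of the same group. That spread was estimated from all 52 libraries in 8 groups, so it also draws on mice outside this comparison.

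Some libraries stood apart. The 18S ribosomal RNA gene Rn18s lay at 45970 CPM in APP/E3 female 1 and 9181 CPM in APP/E3 female 4, against 617.5 to 1928 CPM in the other 12. Csl, a citrate synthase-like gene, was under 5 CPM in 2 of 7 libraries of each genotype (APP/E3 females 4 and 7, APP/E4 females 6 and 7). Cortical excitatory neuron markers were all detected, with a summed level of 7240 to 9950 CPM in APP/E3 and 7210 to 9060 CPM in APP/E4. Markers of neighbouring striatum varied within both groups, from 339 to 4280 CPM in APP/E3 and from 432 to 3400 CPM in APP/E4, and Isl1 alone of 19 was at 0 in some library. The part of these differences between libraries in the results was not tested, except where values without a library are given.

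The engineered loci come first. Mouse Apoe ran from 19.2 through 20.9 to 24.0 CPM in APP/E3 and from 14.8 through 19.2 to 26.2 CPM in APP/E4, with a log2 difference of -0.12 ± 0.10 (adjusted p = 0.57, edgeR). These low values overlapped between the genotypes, and reads from human APOE are not separated in this table, so they do not check the labels. App, the amyloid precursor gene, had a median of 4679 CPM in APP/E3 mice and 5150 CPM in APP/E4 mice (log2 difference 0.08 ± 0.08), and Prnp, whose promoter drives the transgenes, 3002 and 3047 CPM (-0.02 ± 0.10). Neither was called, and their groups overlapped. Reads from the transgenes are not separated from those of the endogenous genes in these counts, so these levels may hold both. Over 19 genes of amyloid precursor and secretases, 13 were higher, none was called, and the median log2 difference was 0.02.

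A small set of genes differed by a large amount between the genotypes and many others by little, led by Serpina3 family genes and Eps8l1 above 0 and by Gm20186 and Ighg2c below. Of 15195 genes, 146 were called (0.961%), 66 higher in APP/E4 (0.434%) and 80 lower (0.526%). The median absolute log2 difference of the called genes was 0.40, and 31 differed by more than 1. In 44 of the 146 the 7 libraries of a genotype did not overlap with the other 7, 22 higher and 22 lower. Over all tested genes such separation was seen for 45 higher (0.296%) and 37 lower (0.244%). The median log2 difference of all genes was -0.01, and 2403 had an unadjusted p under 0.05.

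The largest rises were in the Serpina3 cluster on chromosome 12, which encodes secreted inhibitors of serine proteases. Serpina3n was at 10.8, 18.4 and 37.2 CPM (lowest, median, highest) in APP/E3 and at 74.0, 110 and 144 CPM in APP/E4. The lowest APP/E4 mouse was above the highest APP/E3 mouse, and the log2 difference was 2.28 ± 0.23 (adjusted p = 1.86e-09). Serpina3m, its neighbour, was at 0 CPM in the median APP/E3 mouse and at most at 0.405 CPM, and at 3.08, 4.74 and 6.47 CPM in APP/E4. Summed counts were 9 in APP/E3 and 314 in APP/E4, a ratio of 32.4 per scaled depth with an exact 95% interval of 16.9 to 71.6 that covers counting error only. Serpina3h, annotated as a transcribed pseudogene, went from 5 to 105 counts, a ratio of 19.5 (8.11 to 61.4). All 3 tested genes of this run along the chromosome were called, and reads can be split among these similar copies. The plot of levels by library shows the separation of Serpina3n and Serpina3m in each mouse.

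**Figure D1:**
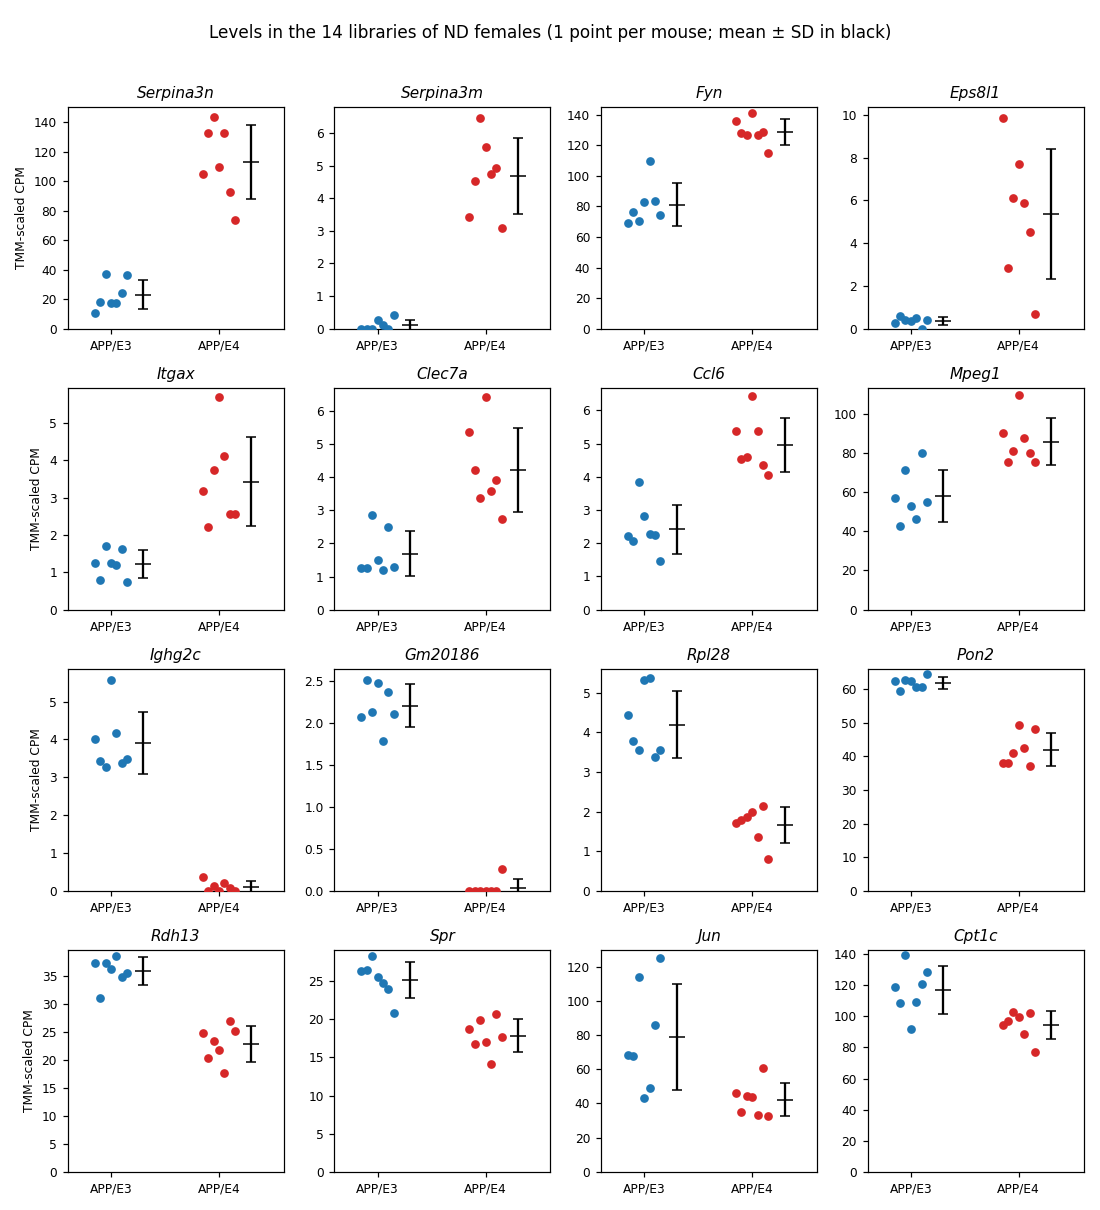
TMM-scaled CPM (vertical axes, from 0) of 16 called genes in the 7 APP/E3 (blue) and 7 APP/E4 (red) ND females, 1 point per mouse, with the mean and SD beside them in black. Serpina3n lies between 10.8 and 37.2 CPM in APP/E3 and between 74.0 and 144 CPM in APP/E4, and the groups overlap for Clec7a, Mpeg1, Jun and Cpt1c.

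The second run of called genes lay on chromosome 7, where 4 of 9 consecutive tested genes from Rdh13 to Ptprh were called, 3 higher and 1 lower. Eps8l1, an adapter of actin signalling, was at 0, 0.405 and 0.572 CPM in APP/E3 and at 0.705, 5.90 and 9.88 CPM in APP/E4. The APP/E4 mice spread widely, yet the lowest of them stood above every APP/E3 mouse, and the log2 difference was 3.83 ± 0.42 (adjusted p = 1.63e-08). Ptprh, a receptor protein tyrosine phosphatase, lay between 0.229 and 0.567 CPM in APP/E3 and between 1.79 and 2.96 CPM in APP/E4, a rise in log2 of 2.61 ± 0.32 (adjusted p = 2.88e-07). D630041G03Rik, a gene without a named product, was at 0.415 to 1.28 CPM in APP/E3 and 2.07 to 4.85 CPM in APP/E4. In the opposite direction, Rdh13, a mitochondrial retinol dehydrogenase, fell from 31.0, 36.3 and 38.5 CPM to 17.6, 23.4 and 26.9 CPM (log2 difference -0.65 ± 0.09, adjusted p = 5.03e-06). Oscar, an immunoreceptor that binds collagen, was also higher, at 10 counts in APP/E3 and 84 in APP/E4, a ratio of 7.81 (4.04 to 16.9). Chromosome 7, which carries the Apoe locus, held 19 called genes of 1143 tested (1.66%), and chromosome 12 held 13 of 553 (2.35%). On the other chromosomes the share was at most 1.37%.

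A pair of transcripts was close to absent in APP/E4. Ighg2c, which encodes the constant part of an IgG heavy chain and lies on chromosome 12, was at 3.27, 3.48 and 5.58 CPM in APP/E3 and at 0, 0.0852 and 0.366 CPM in APP/E4. It had 250 counts against 7, so APP/E3 stood 38.4 times higher (exact 95% interval 18.4 to 96.5, counting error only). Gm20186, a predicted gene, was at 1.79 to 2.52 CPM in APP/E3 and at 0 in 6 of 7 APP/E4 mice, with 140 counts against 3 and a ratio of 50.2 (16.8 to 246). Close relatives of immunoglobulin genes can share reads. The Ighg2c locus formed the third run, of 3 called genes among 9, with Tmem121 lower (log2 difference -0.44 ± 0.11) and the long noncoding transcript D430020J02Rik higher (1.15 ± 0.28), both with groups that overlapped. The call was lost in 8 of the 14 fits that left out 1 library for Tmem121 and in 7 for D430020J02Rik, and this run with it. With at most 2 uncalled genes allowed between neighbours in place of 5, only the runs at Serpina3 and Rdh13 were found.

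Microglial genes of the plaque response came next in size. Itgax, which encodes the integrin CD11c, was at 0.729, 1.24 and 1.71 CPM in APP/E3 and at 2.22, 3.17 and 5.68 CPM in APP/E4. Its groups did not overlap, and the log2 difference was 1.5 ± 0.31 (adjusted p = 0.0081). Ccl6, a chemokine, rose from 1.46, 2.25 and 3.84 CPM to 4.05, 4.60 and 6.42 CPM, again without overlap (1.04 ± 0.20, adjusted p = 0.00307). Clec7a, a receptor for fungal-type glucans that marks plaque-associated microglia, had 1.19, 1.30 and 2.85 CPM in APP/E3 and 2.73, 3.92 and 6.42 CPM in APP/E4. One APP/E4 mouse lay inside the APP/E3 range, and the log2 difference was 1.33 ± 0.31 (adjusted p = 0.0213). The call for Clec7a was lost without APP/E3 female 1, at an adjusted p of 0.0564.

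Other members of this program gave values in the same direction without passing the test. Cst7, a cystatin of plaque-associated microglia, was at 0.477, 3.38 and 4.43 CPM in APP/E3 and at 4.85, 5.45 and 8.84 CPM in APP/E4, with a log2 difference of 1.12 ± 0.37 and an adjusted p of 0.123 although the groups did not overlap. It was called without APP/E3 females 1 and 4 together (1.5, adjusted p = 0.0445), an alternative chosen after seeing the data. None of the 14 fits that left out 1 library called it. Trem2 had a log2 difference of 0.31 ± 0.14 (adjusted p = 0.263) and Tyrobp 0.22 ± 0.14 (0.449). Of 28 tested genes of plaque-associated microglia, 3 were called higher (10.7%, against 0.434% of all genes) and none lower. In this list 19 of 28 were above 0, against 7202 of 15195 genes, and the median log2 difference was 0.21 against -0.01. Of 43 tested genes of the Tyrobp immune network, 35 lay above 0, the median was 0.19, and only Mpeg1, a pore-forming protein of phagocytes, was called (0.57 ± 0.14, adjusted p = 0.0341). Mpeg1 lay at 42.5 to 79.9 CPM in APP/E3 and 75.1 to 110 CPM in APP/E4, and its call was lost in 10 of the 14 fits that left out 1 library. The network was drawn by the study from these mice, so its direction is not independent evidence. All gene lists, the plaque-associated list included, were chosen with earlier results of these data known. The shares of their members called are therefore not independent evidence either.

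Homeostatic microglial genes, which microglia express away from plaques, gave no call. Of 20 tested, 14 were higher, and the median was 0.06. The lowest p values were those of Gpr34, a lysophosphatidylserine receptor (0.34 ± 0.11, adjusted p = 0.119), and Cst3, the cystatin C gene (-0.33 ± 0.13, adjusted p = 0.196). The summed level of the list was 1511 to 1918 CPM in APP/E3 and 1453 to 1858 CPM in APP/E4. In bulk tissue, more cells of a type and more RNA per cell cannot be told apart. Complement genes had a median of 0.02 over 19 genes, with Itgax the one call. Interferon response genes had a median of 0.20 with 27 of 35 higher and none called; Trim30a, an interferon-induced regulator, had the lowest p (0.55 ± 0.20, adjusted p = 0.153). Antigen presentation had a median of 0.02 over 17 genes with none called, B2m at 0.23 ± 0.12 and Psmb8 at 0.30 ± 0.18.

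Among astrocyte genes, Serpina3n and Ntsr2 were the calls. Gfap, the intermediate filament of astrocytes, was at 155, 259 and 576 CPM in APP/E3 and at 210, 292 and 385 CPM in APP/E4, with a log2 difference of 0.01 ± 0.20 (adjusted p = 0.99). Of 19 tested reactive astrocyte genes, 6 were higher, Serpina3n alone was called, and the median was -0.18. Ntsr2, a neurotensin receptor of astrocytes, was the one call among 21 astrocyte identity genes, at 83.4, 89.3 and 102 CPM in APP/E3 and 65.3, 68.5 and 86.0 CPM in APP/E4 (-0.32 ± 0.08, adjusted p = 0.0425). Its groups overlapped and the call was lost in 9 of the 14 fits that left out 1 library.

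Myelin genes gave no call, although 20 of 21 were above 0 and the median was 0.33. Ermn, a cytoskeletal protein of oligodendrocytes, was at 20.8, 52.1 and 111 CPM in APP/E3 and 46.6, 68.8 and 157 CPM in APP/E4 (0.52 ± 0.22, adjusted p = 0.223), and Ugt8a, which makes galactosylceramide, had a log2 difference of 0.46 ± 0.18 (adjusted p = 0.186). Both were called without APP/E3 female 4 (Ermn 0.78, adjusted p = 0.024; Ugt8a 0.62, adjusted p = 0.0354). The summed level of the list ran from 1810 to 7180 CPM in APP/E3 and from 3300 to 9510 CPM in APP/E4, a wider range within each genotype than the distance between the genotypes. Oligodendrocyte precursor genes had a median of 0.02 over 12 genes, none called.

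Blood markers and those of mural cells and meninges had the lowest medians of the 32 lists. Of 20 mural and meningeal fibroblast genes, 4 lay above 0 and the median was -0.60. Col1a1, the fibrillar collagen gene, was called lower and lay at 4.96, 11.2 and 34.6 CPM in APP/E3 and 2.56, 6.59 and 8.78 CPM in APP/E4 (-1.57 ± 0.42, adjusted p = 0.0498), and the call was lost in 9 of the 14 fits that left out 1 library. The summed level of these markers ran from 563 to 1909.1 CPM in APP/E3, with a median of 931.9 CPM, the highest value in female 7 and the next highest at 1877.2 CPM, and from 493 to 1165 CPM in APP/E4, with none of the 20 at 0. Of 10 blood and granulocyte genes none was higher, with a median of -1.16 and none called, and the median was -0.20 with voom. Their summed level was 27.4 to 362 CPM in APP/E3 and 29.7 to 51.2 CPM in APP/E4, and 5 (Alas2, S100a8, S100a9, Ngp and Igkc) were at 0 in some library. Hba-a1, a globin gene, was at 134.6 CPM in APP/E3 female 5 and at most at 20.1 CPM in the other 6. The 20 endothelial genes had a median of -0.07 with none called, Cldn5 at -0.35 ± 0.17 and Egfl7 at -0.22 ± 0.11. The 12 choroid plexus genes had a median of -0.07 and the 14 olfactory genes 0.00 and none called. Of the 14 olfactory genes 7 were at 0 in some library, and their summed level was 31.7 to 283 CPM in APP/E3 and 29.3 to 287 CPM in APP/E4. The 19 striatal genes had a median of 0.38 with 18 higher and none called (Pde10a 0.64 ± 0.55).

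**Figure D2:**
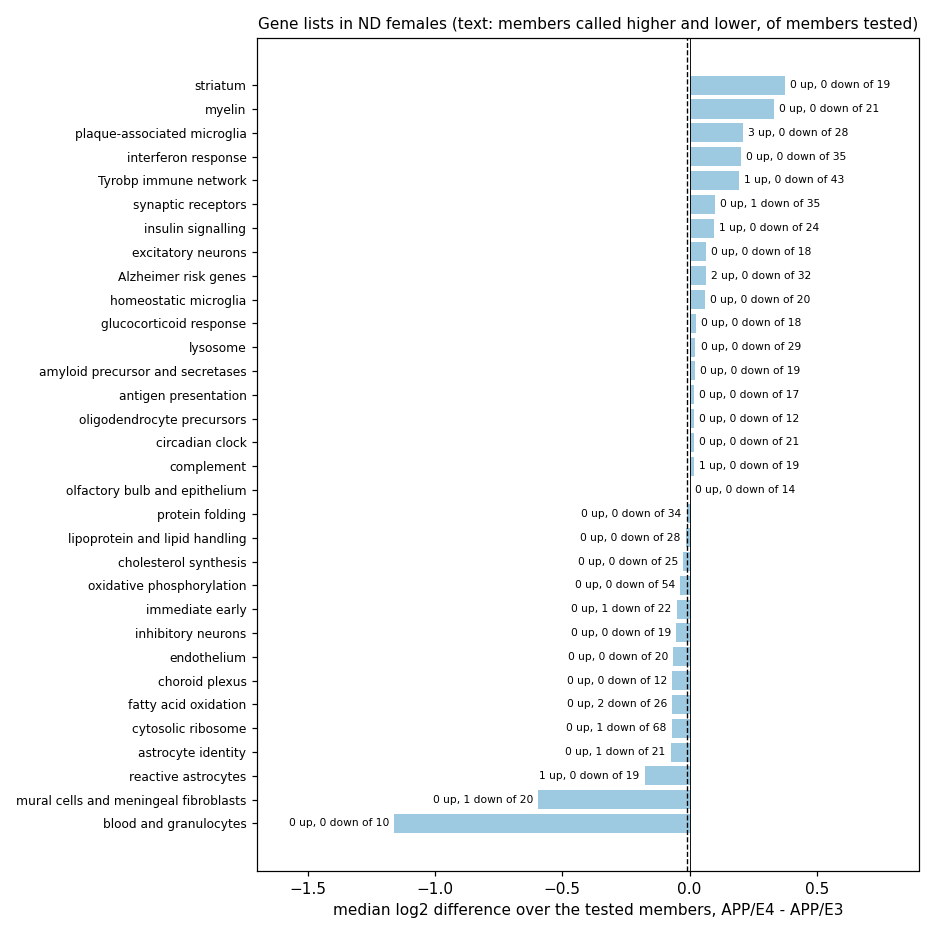
Median log2 difference (APP/E4 minus APP/E3, horizontal axis) over the tested members of 32 gene lists in ND females, with the members called higher and lower printed beside each bar and the median of all genes (-0.01) as a dashed line. The lowest medians in this fit are those of blood (-1.16, and -0.20 with voom) and of mural and meningeal genes (-0.60), and the list with most members called higher is plaque-associated microglia, with 3 of 28.

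Neuronal genes differed in single members. Jun, an immediate early transcription factor of the AP-1 family, fell from 42.9, 68.1 and 125 CPM to 32.4, 44.0 and 60.4 CPM (-0.90 ± 0.18, adjusted p = 0.00429), with groups that overlapped. The other 21 immediate early genes were not called, and the list had a median of -0.05. The call for Jun held in all 14 fits that left out 1 library. Fyn, a Src family kinase that acts at synapses and in oligodendrocytes, rose from 69.3, 76.3 and 110 CPM to 115, 128 and 141 CPM with no overlap (0.67 ± 0.09, adjusted p = 5.43e-06). Grik5, a kainate receptor subunit, fell by 0.23 ± 0.06 on the log2 scale (adjusted p = 0.0498), the one call among 35 synaptic receptor genes, and its call was lost in 11 of the 14 fits that left out 1 library. Excitatory markers had a median of 0.07 over 18 genes and inhibitory markers -0.05 over 19, with none called; Gria2 stood at 0.18 ± 0.06, Grin2b at 0.68 ± 0.33, Htr3a at -0.43 ± 0.16 and Npy at -0.26 ± 0.13.

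Genes of lipid handling, the biochemical role of apolipoprotein E, gave few calls. Among 28 lipoprotein and lipid handling genes none was called and the median was -0.02. Cyp46a1, which turns cholesterol into the hydroxysterol that leaves the brain, was at 218, 238 and 288 CPM in APP/E3 and 196, 212 and 242 CPM in APP/E4 (-0.22 ± 0.07, adjusted p = 0.0983, and 0.0343 without APP/E3 female 4). Lrp1, an apolipoprotein E receptor, was at 263, 369 and 448 CPM and 406, 452 and 510 CPM (0.32 ± 0.10, adjusted p = 0.113). Neither passed the test over all libraries, and the groups overlapped for both. Cholesterol synthesis had a median of -0.02 over 25 genes with none called, Mvk at -0.30 ± 0.10 and Stard4 at 0.37 ± 0.14. In fatty acid oxidation 2 of 26 genes were called lower (7.69%, against 0.526% of all genes), and the median was -0.07. Cpt1c, a neuronal carnitine palmitoyltransferase, fell from 92.0, 119 and 139 CPM to 77.1, 97.1 and 103 CPM (-0.30 ± 0.07, adjusted p = 0.0209). Pdk2, a kinase that inhibits pyruvate dehydrogenase, fell by 0.25 ± 0.07 on the log2 scale (adjusted p = 0.0489). These calls were lost in 4 and 9 of the 14 fits that left out 1 library.

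Signalling, risk and housekeeping lists followed the same pattern of few calls. Gsk3b, a kinase of insulin and Wnt signalling that phosphorylates tau, rose from 232, 252 and 283 CPM to 264, 312 and 342 CPM (0.28 ± 0.07, adjusted p = 0.0375), the one call among 24 insulin signalling genes. Among 32 Alzheimer risk genes, Picalm, a clathrin assembly protein, rose (0.22 ± 0.05, adjusted p = 0.0302) and Wwox, an oxidoreductase, rose (0.80 ± 0.21, adjusted p = 0.049). Calls of these 3 were lost in 8, 7 and 11 of the 14 fits that left out 1 library. Rpl28, a protein of the large ribosomal subunit, fell from 3.38, 3.77 and 5.37 CPM to 0.793, 1.80 and 2.13 CPM with no overlap (-1.33 ± 0.24, adjusted p = 7.37e-04), while the other 67 ribosomal protein genes were not called and the list had a median of -0.07. At such low levels for a ribosomal protein gene, reads of processed copies can be split. The lysosome list had a median of 0.02 over 29 genes with none called, Ctsd at 0.24 ± 0.07 and Ctsf at -0.23 ± 0.07. None was called in oxidative phosphorylation (54 genes, median -0.04), protein folding (34, -0.01), glucocorticoid response (18, 0.03) or circadian clock (21, 0.02).

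Further calls without overlap fell outside the lists. Pon2, a lactonase of the paraoxonase family, was at 59.3, 62.2 and 64.5 CPM in APP/E3 and 37.1, 40.9 and 49.4 CPM in APP/E4 (-0.56 ± 0.09, adjusted p = 1.63e-04). Spr, sepiapterin reductase, which makes the tetrahydrobiopterin cofactor, fell from 20.8, 25.6 and 28.3 CPM to 14.1, 17.6 and 20.6 CPM (-0.49 ± 0.10, adjusted p = 0.00316). Alkbh6 (-0.61 ± 0.10), Cetn4, a centrin (-0.89 ± 0.17), and Epb41l4aos, a noncoding transcript antisense to another gene whose reads it can share (-1.10 ± 0.20), fell as well. Fbxo5, an inhibitor of the anaphase-promoting complex, rose, from between 0.692 and 1.24 CPM in APP/E3 to between 1.53 and 3.86 CPM in APP/E4 (1.35 ± 0.28, adjusted p = 0.0081), and 4932438A13Rik, a very long transcript, rose by 0.69 ± 0.11 (adjusted p = 1.35e-04). Zyx, a focal adhesion protein (-0.33 ± 0.08, adjusted p = 0.0267), and Tmem223 (-0.38 ± 0.10, adjusted p = 0.0498) were nearest to the threshold of this set, and their calls were lost in 6 and 11 of the 14 fits that left out 1 library.

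Wdfy1, an adapter of Toll-like receptor signalling, was picked out after its values were seen, because its APP/E3 mice split. In APP/E3 it was at 13.3 CPM in 1 mouse and at 33.5 to 68.0 CPM in the other 6, and in APP/E4 all 7 lay between 14.3 and 16.7 CPM. The log2 difference was -1.55 ± 0.25 (adjusted p = 1.14e-04). In the other strata, all 8 APP/E3 HFD females were at 35.8 CPM or higher, the 6 APP/E3 ND males were at 15.0, 15.7, 15.9, 20.6, 39.7 and 42.7 CPM, and none of the 13 other APP/E4 mice of these strata exceeded 19.6 CPM. Vps41, a tethering factor of late endosomes and lysosomes, was at 90.6, 145 and 160 CPM in APP/E3 and 185, 204 and 223 CPM in APP/E4 (0.61 ± 0.12, adjusted p = 0.00316).

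The same genotype contrast was available in ND males (6 against 6) and HFD females (7 APP/E4 against 8 APP/E3), in mice not shared with the ND females. There were 61 calls in ND males (0.401%) and 92 in HFD females (0.605%). Of the 146 calls, 20 were also called in ND males (13.7% of the ND female calls and 32.8% of the male calls) and 28 in HFD females (19.2% and 30.4%), each in the same direction. Of all 146, 134 had the same sign in ND males (91.8%, against 67% of all genes) and 133 in HFD females (91.1%, against 61.7%). The genes called higher had a median of 0.40 in ND females, 0.18 in ND males and 0.14 in HFD females, and those called lower -0.39, -0.18 and -0.14. The first value of each was selected by the call and the others were not.

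Genes called in all 3 strata numbered 16. They were Serpina3h, Serpina3m, Serpina3n, Eps8l1, Ptprh, D630041G03Rik, Oscar, Fyn, Fbxo5 and Mfn2, which rose, and Gm20186, Ighg2c, Rdh13, Pon2, Fank1 and Tsr2, which fell. Serpina3n differed by 2.28 ± 0.23 in ND females, 2.24 ± 0.25 in ND males and 2.68 ± 0.23 in HFD females. Pon2 differed by -0.56 ± 0.09, -0.56 ± 0.10 and -0.49 ± 0.09, and Rdh13 by -0.65 ± 0.09, -0.56 ± 0.10 and -0.60 ± 0.09. The plot of 3 strata shows these values side by side.

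The microglial calls were found in females of both diets. Itgax had a log2 difference of 0.52 ± 0.37 in ND males (adjusted p = 0.622) and 1.33 ± 0.29 in HFD females (0.0129), Ccl6 0.30 ± 0.23 (0.66) and 1.11 ± 0.19 (4.51e-04), Clec7a 0.72 ± 0.37 (0.476) and 1.64 ± 0.29 (7.68e-04), and Mpeg1 0.21 ± 0.15 (0.633) and 0.79 ± 0.14 (4.51e-04). The difference of the genotype effect between ND females and ND males, tested as an interaction, had an unadjusted p of 0.049 for Itgax, 0.0195 for Ccl6, 0.213 for Clec7a and 0.0957 for Mpeg1, and none passed adjustment. The median over the plaque-associated list was 0.21 in ND females, 0.07 in ND males and 0.33 in HFD females, and that over the Tyrobp network 0.19, 0.00 and 0.38. For myelin the medians were 0.33, 0.36 and 0.39. For mural and meningeal genes they were -0.60, 0.38 and -0.17, and for striatum 0.38, 0.50 and -0.64, so these last 2 lists did not keep their direction. Nor did blood genes (-1.16, -0.79 and 1.33, with 8 of 10 above 0 in HFD females), reactive astrocytes (-0.18, 0.23 and 0.17) or choroid plexus (-0.07, 0.39 and -0.60).

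Over all genes, the genotype effect differed between the sexes on ND for 1 gene (0.00658%; 602 had an unadjusted p under 0.05) and between the diets in females for none (0%; 922 had an unadjusted p under 0.05). DESeq2 and voom also called 1 and 0. The gene was Hccs, the X-linked holocytochrome c synthase, which was not called in ND females (0.08 ± 0.08, adjusted p = 0.647). There it was at 24.2, 26.6 and 32.0 CPM in APP/E3 and at 24.9, 29.2 and 36.7 CPM in APP/E4. In ND males Hccs rose by 1.15 ± 0.08. Ddx3y, a Y-linked gene, ran from 58.6 to 76.9 CPM in APP/E3 ND males and from 125 to 168 CPM in APP/E4 ND males. Whether the 2 are related was not tested, and genotype and breeding line cannot be told apart. Among the named ND female calls, the lowest p for the interaction with diet were those of 4932438A13Rik (interaction 0.51, unadjusted p = 0.00178) and Ntsr2 (-0.36, unadjusted p = 0.00308), and neither passed adjustment.

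**Figure D3:**
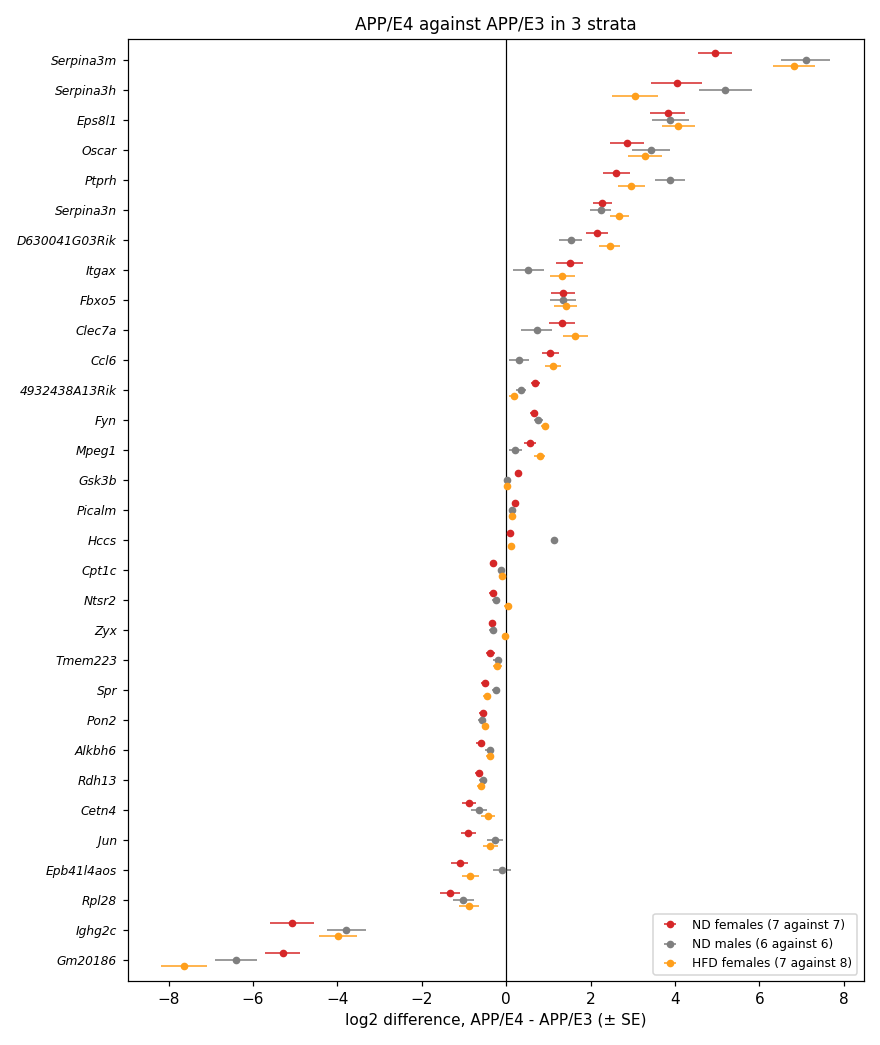
Log2 difference between APP/E4 and APP/E3 with SE (horizontal axis) in ND females (red), ND males (grey) and HFD females (orange) for 31 genes. Serpina3n, Pon2, Rdh13 and Fyn lie on the same side of 0 in all 3, Itgax, Ccl6, Clec7a and Mpeg1 are lowest in ND males, and Hccs differs in ND males alone.

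Transcript length went with the direction of the calls. Of the 60 genes called higher that have a length, 58.3% were among the longest 20% of transcripts, against 5.26% of the 76 called lower. Over all genes called higher, with or without a length, the share was 35 of 66. Counted in this way, it varied with the library left out. Leaving out 1 of APP/E3 females 2, 4, 5 and 7 gave 31 of 55, 121 of 243, 28 of 56 and 17 of 41. Leaving out 1 of APP/E4 females 1, 3, 4 and 6 gave 39 of 73, 19 of 40, 82 of 133 and 48 of 80. It was lower without any of the other libraries. Of the genes called higher, 4 of 26 were that long without APP/E4 female 7, 4 of 21 without APP/E4 female 5, 5 of 25 without APP/E3 female 6, 6 of 26 without APP/E4 female 2, 8 of 28 without APP/E3 female 3 and 8 of 26 without APP/E3 female 1. Median lengths were 6584 nt for genes called higher, 2758 nt for genes called lower and 3487 nt for all tested genes, and median GC contents 45.9%, 56.4% and 49.9%. For a length index, each gene's log2 level was taken relative to its mean over the 14 libraries. The index of a library is the mean of these values over the longest 20% minus that over the shortest 20%. It ran from -0.265 to 0.0508 in APP/E3 libraries and from -0.0716 to 0.221 in APP/E4 libraries. The index was lowest in APP/E3 female 1, and the genotypes overlapped. The longest 20% of all tested genes had a median log2 difference of 0.09 and the shortest 20% of -0.08. With the trend on length removed in each library, 112 genes were called, of which 91 were among the 146, and 6 of the 48 called higher were among the longest. Serpina3n, Serpina3m, Fyn, Itgax, Clec7a, Ccl6, Pon2, Rdh13, Rpl28 and Jun were called there too, while Picalm, Wwox, Gsk3b, Pdk2, Grik5, Ntsr2, Tmem121 and Tmem223 were not. Rn18s itself was called lower in APP/E4 (-2.98 ± 0.58, adjusted p = 0.00379), with Rn7sk (-2.38 ± 0.52) and Rpph1 (-3.08 ± 0.70), and all 3 were highest in APP/E3 female 1. None of these 3 calls held without that mouse (Rn18s -1.21, adjusted p = 0.15; Rn7sk -0.88, 0.246; Rpph1 -0.49, 0.683) or with voom. Without APP/E3 females 1 and 4 the differences were -0.15, 0.06 and -0.05, so that of Rn7sk changed sign. In the fit to the 14 libraries alone the adjusted p was 0.19 for Rn18s and 0.236 for Rn7sk, and Rpph1 was not tested.

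**Figure D4:**
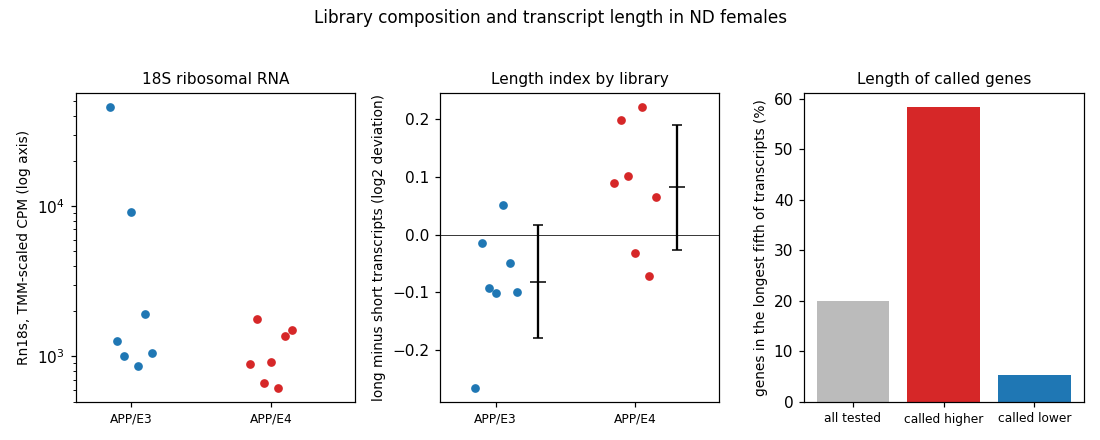
Left, Rn18s in TMM-scaled CPM (log axis) in each of the 14 libraries. Middle, length index of each library, with mean and SD in black. It is the mean log2 deviation from the gene means of the 14 libraries, long minus short transcripts. Right, share of genes in the longest 20% of transcripts among all tested genes, genes called higher and genes called lower, counting genes that have a length. APP/E3 female 1 has the highest Rn18s (45970 CPM) and the lowest length index (-0.265). Of the genes called higher that have a length, 58.3% are long. Over all genes called higher, with or without a length, the share was 35 of 66. With 1 library left out, the latter share ran from 4 of 26 genes without APP/E4 female 7 to 82 of 133 without APP/E4 female 4.

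How many genes were called depended on which libraries were fitted, while the leading genes stayed. The fit to the 14 libraries alone, without the other 38 to estimate the spread, called 31 genes, 29 of them among the 146. Leaving out 1 library in turn gave between 42 and 492 calls. Without APP/E3 female 1 there were 61, without 3 there were 49 and without 6 there were 53. Without APP/E4 females 2, 3, 5 and 7 there were 49, 79, 42 and 42. The count rose to 492 without APP/E3 female 4 and to 289 without APP/E4 female 4. Without APP/E3 females 1 and 4 together, those with most Rn18s, 396 genes were called, of which 119 were among the 146. Across all 14 such fits 30 of the 146 genes were called each time, and 23 were called in every one of 24 alternatives that gave an adjusted p. These 23 were Serpina3h, Serpina3m, Serpina3n, Eps8l1, Ptprh, D630041G03Rik, Oscar, Fyn, Fbxo5, Ccl6, Vps41, Pcdhga12 and 4932438A13Rik, which were higher, and Gm20186, Ighg2c, Rdh13, Pon2, Rpl28, Spr, Cetn4, Epb41l4aos, Fank1 and Wdfy1, which were lower. Pcdhga12 shares exons with other gamma protocadherins, so its reads can be split. Serpina3h, Eps8l1 and Oscar were below the filter in the fit to the 14 libraries alone. DESeq2 gave no adjusted p for Serpina3h, Serpina3m, Eps8l1, Ptprh, D630041G03Rik, Oscar, Fbxo5, Ccl6, Gm20186, Ighg2c, Rpl28, Cetn4 and Epb41l4aos, so it did not test these calls. Fank1 had an adjusted p in 23 of the 24. Itgax and Clec7a are not among the 23, since both calls were lost without the low-Csl libraries of the series (log2 difference 1.53, adjusted p = 0.0508, and 1.35, adjusted p = 0.0631), and that of Jun was lost in the fit to the 14 libraries alone (-0.90, adjusted p = 0.133). The differences themselves stayed close to those of the fit to all libraries.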

How the data were processed

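Polyadenylated RNA from frontal cortex was sequenced in 52 mice, from RNA with an integrity number above 8. The authors deposited raw counts of reads per gene, and the submitters' processing notes list Subread, featureCounts, limma, edgeR 3.14.0 and genome mm9 with neither roles nor settings. The annotation, the strand setting and the handling of multi-mapping reads are not stated in what was used here. Of 15692 genes, 24 symbols that had become dates were restored by gene ID, and 15448 IDs matched a RefSeq table (GRCm38.p6) used for names, types and gene order only. Transcript length and GC content came from GENCODE vM21 for 14248 tested genes.

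Counts were fitted in R 4.3.3 with edgeR 4.0.16 (filterByExpr, 497 genes removed, TMM, robust quasi-likelihood, 8 group means over 52 libraries), and p-values were adjusted by Benjamini-Hochberg. Log2 CPM carry a prior count of 2. The code was tested on simulated data. Over 42 pairs within a group, chi-square per gene between libraries was at least 3.29, so none were duplicates. Replicate numbers follow the order of deposit and pair nothing. Alternatives were DESeq2 1.42.0, voom (limma 3.58.1), other scaling, filter, terms and libraries.

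The comparison, gene lists and naming rule were chosen with earlier results of these data known. Named were the 12 highest and 12 lowest called genes without overlap and with a mean of 1 CPM or more in the higher group, called members of 32 lists (at most 6, or the 2 of lowest p where none was called, of which the text prints some), 11 genes chosen in any case, genes called for an interaction and members of runs of 3 or more called genes with at most 5 tested genes between neighbours. Some genes that this rule names are not reported here.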

Additional observations from a re-analysis of the deposited data

Results flagged for a closer look

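Single mice stood far from the other 6 of their group in 18 of 172 tested combinations of named gene and genotype (10.5%). The cutoff flags about 1 in 20 for independent, normally distributed values. The CPM were not logged and the genes were named by a rule, so whether 10.5% exceeds chance cannot be judged. In APP/E3 the highest mouse stood apart for Fyn (110 CPM against a next value of 83.8 CPM, female 5), Ighg2c (5.58 against 4.17 CPM, female 4), Alkbh6 (34.9 against 27.0 CPM, female 3), Vcan (27.5 CPM, female 6), Ighm (79.0 against 41.6 CPM, female 4), Hba-a1 (134.6 against 20.1 CPM, female 5), Scn4b (763 against 324 CPM, female 1), Cyp2f2 (2.50 against 0.596 CPM, female 6), Mvk (27.8 CPM, female 3), Aplp2 (790 CPM, female 4) and Atf4 (185 against 119 CPM, female 4). In APP/E4 the highest stood apart for Gm20186 (0.264 CPM against 0, female 7), Ermn (157 against 88.4 CPM, female 7), Mt1 (120.5 CPM, female 4), Nr3c1 (204 CPM, female 7), Bhlhe41 (18.2 CPM, female 7) and Hccs (36.7 CPM, female 7), and the lowest for Hspa4 (266 against 306 CPM, female 4). APP/E4 female 7 was flagged for 5 of these genes and APP/E3 female 4, which has much Rn18s, for 4. In Fyn and Ighg2c the flagged mice did not close the gap between the genotypes.

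The genotype effect on Hccs differed between the sexes on ND, with an interaction of -1.06 on the log2 scale (females minus males, adjusted p = 3.54e-08, edgeR). It was 0.08 ± 0.08 in ND females and 1.15 ± 0.08 in ND males. Y-linked Ddx3y also differed between the ND males of the genotypes, as given above, and genotype and breeding line cannot be told apart.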

How the results depend on the processing

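Of the 37 named genes that were called, 37 kept their call with RLE size factors, without the filter and with a term for low Csl, and 31 with voom. With DESeq2, 18 were called and 19 had no adjusted p. Calls of 18 of the 37 held with the 14 libraries alone, where 4 were not tested. DESeq2 called 252 genes (123 higher, 129 lower; 102 among the 146), the low-Csl term gave 224 (107 higher), and the 14 libraries alone 31 (21 higher, 10 lower). Without the low-Csl libraries 45 were called lower, and 52 with the female groups alone. Without APP/E3 ND females 1 and 4, an alternative chosen after seeing the data, 396 were called (183 higher, 213 lower). Leaving out 1 library gave 42 to 492 calls, 21 to 243 higher and 16 to 249 lower. In ND males DESeq2 called 99 and the contrast's libraries alone 23. In HFD females DESeq2 called 142, the low-Csl term gave 154, omitting the low-Csl libraries 41, the female groups alone 55 and the contrast's libraries alone 33. Named genes also gained calls, 8 without APP/E3 ND female 4, 7 without females 1 and 4, 2 with DESeq2 and 1 each with the female groups alone, with length offsets and without APP/E4 ND female 6. The cause of these shifts was not tested. The smaller fits also hold fewer samples.

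Of the 146 called genes 2 changed sign in an alternative, both in the ones chosen after seeing the data: Rn7sk (0.06 without APP/E3 ND females 1 and 4) and Ube2d3 (-0.04 with length offsets). Among named genes those near 0 did so. App was at -0.03549 with length offsets. Prnp was at 0.007856 without the low-Csl libraries and 0.0322 with length offsets. Gfap was at -0.13 without APP/E3 ND females 1 and 4. Leaving out 1 library, Prnp ran from -0.051 to 0.0178 and Gfap from -0.09279 to 0.286. No paired analysis was possible because the labels give no replicate numbers that groups share. A level under 3 counts was not distinguishable from 0 at these depths.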
